A study of Homo sapiens with 6 samples.

Results

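The transcription factor gene TP63, its relative TP73 and 8 keratin genes (KRT5, KRT6A, KRT6B, KRT14, KRT15, KRT16, KRT17 and KRT81) were followed across parental and drug-resistant MDA-MB-231 cells. The 10 genes were taken by symbol from the 69292 genes of the count table, and the set was chosen by the level of TP63, which was higher in the ridaforolimus-resistant line than in parental cells. MDA-MB-231 is a human triple-negative breast cancer line, and the study compared its expression with that of derivatives resistant to inhibitors of the mTOR kinase. The 3 groups had 2 RNA-seq libraries each: parental cells, cells kept for months in 20 µM everolimus, and cells kept for months in 30 µM ridaforolimus. The treatment field of the parental libraries names DMSO, whereas the protocol gives them no drug. Each resistant line is a single derivative held in its drug, so resistance, presence of the drug and drift in culture cannot be told apart. Nothing in the labels says that the libraries of a group came from separate cultures, so p-values measure the spread between these libraries, which may be technical.

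TP63 encodes p63, a member of the p53 family that maintains the basal layer of stratified epithelia and the basal cells of the mammary gland. In those cells p63 works beside the keratins KRT5 and KRT14, which pair into the filaments of the basal layer. KRT15 also marks basal cells, KRT6A, KRT6B, KRT16 and KRT17 are made in wounded or hyperproliferative epithelium, and KRT81 is a keratin of the hair shaft. TP63 has an upstream start that gives proteins with a transactivation domain (TAp63) and an internal start that gives the shorter ΔNp63, the main form of basal cells.

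TP63 spans chr3:189631416-189897279 on the plus strand in GENCODE 29, an annotation of GRCh38. Of its 14 annotated transcripts 12 are protein coding, 5 of them from starts in the upstream part of the gene and 7 from starts in the downstream part, 158.2 kb further on. Counts per gene pool them, so TAp63 and ΔNp63 could not be separated here. RefSeq promoter windows on GRCh38.p14 were at hand for 3 of the 10 genes (TP63, TP73 and KRT5). The 250 bases before the upstream start of TP63 and before the start of KRT5 are shown, 5′ to 3′ along each gene's own strand, because they are the promoters of the gene that led the set and of a keratin that p63 is known to drive. Capitals mark a match to the p53-family half-site, the 10-base consensus that the family's proteins share and that reads the same on both strands.
TP63, chr3:189631139-189631388, plus strand: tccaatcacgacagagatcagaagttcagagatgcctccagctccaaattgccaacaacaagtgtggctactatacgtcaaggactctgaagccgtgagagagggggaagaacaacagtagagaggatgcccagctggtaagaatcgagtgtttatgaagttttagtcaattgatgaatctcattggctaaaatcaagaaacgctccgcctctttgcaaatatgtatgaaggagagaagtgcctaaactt
KRT5, chr12:52520395-52520644, minus strand: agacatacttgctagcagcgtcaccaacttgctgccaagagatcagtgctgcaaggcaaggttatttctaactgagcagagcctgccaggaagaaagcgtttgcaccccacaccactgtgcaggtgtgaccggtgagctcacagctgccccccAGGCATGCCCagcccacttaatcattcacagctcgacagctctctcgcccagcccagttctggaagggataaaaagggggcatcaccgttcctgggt
KRT5 held 1 match, which began 97 bases before the start, and the TP63 window and the 3 windows of TP73 held 0. Of 35116 RefSeq promoters of 300 bases, 6.63% held at least 1 match. GC content was 44% in the TP63 window and 56% in the KRT5 window.

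The libraries held 13134567 to 15556246 counts. The 2 ridaforolimus libraries stood apart from the other 4, and from each other, on the first principal component of all tested genes (36.08% of the variance, scores of 36.41 and 73.21 against -33.73 to -22.13). Of the 10 genes, 9 had a count in at least 1 library and 5 passed the filter on low counts (TP63, TP73, KRT6A, KRT15 and KRT81), beside 21223 of all genes. TP63 passed it only through the ridaforolimus libraries and KRT6A only through the parental ones. The set was named for basal keratins, which the data did not bear out: KRT14 had 0 counts in all 6 libraries, and KRT5, KRT6B, KRT16 and KRT17 stayed under 1 CPM (counts scaled to the TMM-adjusted library total) in each of them. For a group at 0, a count of 3 over both libraries was used as the upper limit, about 0.11 CPM, which covers counting error only.

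TP63 was high in the ridaforolimus line alone. It had 10 and 4 counts in the parental libraries, 5 and 9 in the everolimus libraries, and 220 and 221 in the ridaforolimus libraries. Mean levels were 0.523 ± 0.341 CPM (SD, n = 2) in parental cells, 0.479 ± 0.165 CPM in the everolimus line and 16.5 ± 0.441 CPM in the ridaforolimus line. Both ridaforolimus libraries lay far above the other 4, which overlapped one another. The fitted log2 difference from parental cells was 4.97 ± 0.46 (SE), a 31.3-fold higher level and the eighth highest of the 21223 genes, and the difference from the everolimus line was 5.07 ± 0.46. These values chose the set and are given with no test. The size rests on few parental reads: the log2 difference was 5.82 without parental replicate 1 and 4.41 without parental replicate 2. Between the everolimus line and parental cells the log2 difference of TP63 was -0.10 (95% interval -1.40 to 1.20, adjusted p = 0.976, edgeR's quasi-likelihood test), which leaves room for a more than 2-fold change in either direction. Without parental replicate 1 it was 0.75, and it also turned positive without everolimus replicate 1 (0.21).

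**Figure D1:**
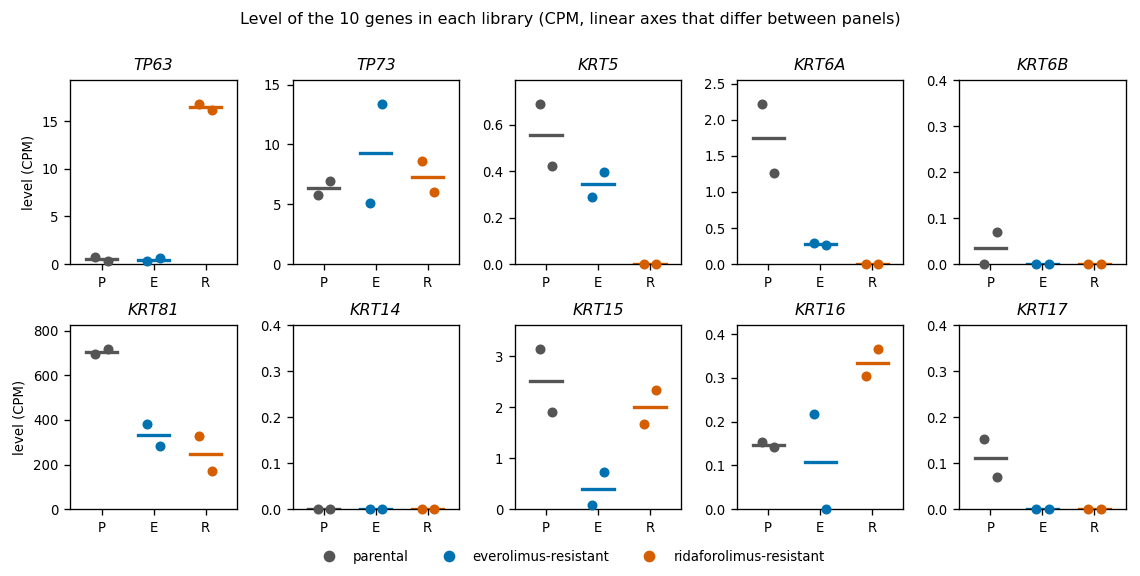
Level of each of the 10 genes (CPM, linear axis from 0, a different scale in each panel) in the parental (P), everolimus-resistant (E) and ridaforolimus-resistant (R) libraries. Points are libraries and bars are group means of 2. TP63 stood at 16.77 and 16.15 CPM in the R libraries and under 1 CPM elsewhere, KRT81 was lower in both lines than in parental cells, and KRT14 was at 0 throughout.

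TP73 encodes p73, a relative of p63, which acts in neuronal and ciliated cell development and in the response to DNA damage. Its levels were 5.81 and 6.90 CPM in parental cells, 5.14 and 13.3 CPM in the everolimus line, and 8.61 and 5.99 CPM in the ridaforolimus line. Everolimus replicate 2 was the highest library, and no 2 groups were separated. The log2 difference from parental cells was 0.54 ± 0.44 in the everolimus line (95% interval -0.47 to 1.56, adjusted p = 0.767, edgeR) and 0.20 ± 0.45 in the ridaforolimus line. Between the lines, ridaforolimus minus everolimus, it was -0.34 (interval -1.36 to 0.67, adjusted p = 0.782, edgeR). Without everolimus replicate 2 the first of these was -0.31 and the last 0.51.

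Per kilobase of exon, which allows genes to be compared, KRT81 led the set in every group (365.7, 172.2 and 128.9 CPM per kb in parental, everolimus and ridaforolimus cells). In parental cells TP73 came next at 0.94 CPM per kb, and TP63 at 0.07 CPM per kb lay below KRT6A (0.595), KRT15 (0.356) and KRT5. In the ridaforolimus line TP63 at 2.21 CPM per kb was second, above TP73 at 1.08, and its lowest library lay above the highest of TP73 on that scale.

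KRT81 was the one keratin of the set with a high level, and it was lower in both lines. It stood at 694 and 716.5 CPM in the parental libraries, 381 and 284 CPM in the everolimus libraries, and 327 and 170 CPM in the ridaforolimus libraries. Both lines lay below both parental libraries and overlapped each other. In the everolimus line KRT81 was 2.12-fold below parental cells (log2 difference -1.09 ± 0.31, 95% interval -1.81 to -0.37), which did not pass the threshold over all genes (adjusted p = 0.439, edgeR). In the ridaforolimus line it was 2.84-fold below the same parental libraries (log2 difference -1.50 ± 0.32), a description with no test. The direct difference, ridaforolimus minus everolimus, was -0.42 ± 0.31 (interval -1.13 to 0.29, adjusted p = 0.603, edgeR). KRT81 (chr12:52285913-52291534, minus strand) shared 44.6% of its 50-base transcript windows with other genes, most of them with KRT86. Its count may therefore hold reads of KRT86 or lack reads of its own. The span of KRT86 (chr12:52249300-52309163, plus strand) contains that of KRT81. KRT86 stood at 12.7 and 8.59 CPM in parental, 9.2 and 5.49 CPM in everolimus, and 6.71 and 3.36 CPM in ridaforolimus libraries. Its ridaforolimus libraries lay below both parental ones, while its everolimus libraries overlapped them.

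KRT6A (chr12:52487174-52493257), an inducible keratin of wounded epithelium, was detected mostly in parental cells. It had 29 and 18 counts there, 4 and 4 in the everolimus line, and 0 in both ridaforolimus libraries. The everolimus libraries lay below the parental ones, with a fitted log2 difference of -2.61 ± 0.62, given with no test because KRT6A entered the fit only through its parental counts. With 0 counts, the ridaforolimus line was at least 15.4-fold lower than parental cells and at least 2.47-fold lower than the everolimus line. These bounds were not tested. The fitted difference between the lines, which rests on 4 and 4 counts against 0, did not pass (adjusted p = 0.200, edgeR). A share of 39.1% of its transcript windows also occurs in other genes, chiefly KRT6C.

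KRT5 (chr12:52514575-52520687) was near the limit of detection and lowest in the line with TP63. It had 9 and 6 counts in parental cells, 4 and 6 in the everolimus line, and 0 in both ridaforolimus libraries. The ridaforolimus line was therefore at least 4.91-fold lower than parental cells and at least 3.09-fold lower than the everolimus line. KRT14 (chr17:41582279-41586921), the partner of KRT5, had 0 counts everywhere, so no difference could be seen at this depth.

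KRT15 (chr17:41513743-41522529) was lowest in the everolimus line. It had 41 and 27 counts in parental cells, 1 and 11 in the everolimus line, and 22 and 32 in the ridaforolimus line. The everolimus libraries were below all 4 others, while the ridaforolimus libraries overlapped the parental ones. The log2 difference from parental cells was -2.59 ± 0.72 in the everolimus line (95% interval -4.24 to -0.95, adjusted p = 0.435, edgeR) and -0.32 ± 0.60 in the ridaforolimus line. Ridaforolimus minus everolimus it was 2.27 (interval 0.60 to 3.94, adjusted p = 0.219, edgeR). Everolimus replicate 1, with its single read, set much of both sizes: without it they were -1.77 and 1.45, and without everolimus replicate 2 they were -4.95 and 4.63.

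KRT16, KRT17 and KRT6B had at most 5 counts in any library. KRT16 had 2 and 2 counts in parental cells, 3 and 0 in the everolimus line, and 4 and 5 in the ridaforolimus line. KRT17 had 2 and 1 counts and KRT6B 0 and 1 in parental cells, and both had 0 in the 4 resistant libraries. These differences were not detectable at this depth.

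Of the 10 genes, 5 had both everolimus libraries below both parental ones (KRT5, KRT6A, KRT15, KRT17 and KRT81) and 0 had both above, and 0 of those tested passed edgeR's threshold. Over all tested genes 20.5% separated downward and 20.6% upward in that comparison, and 0.00471% passed the threshold. Such shares do not cover KRT5, KRT16 and KRT17, which did not pass the filter on low counts, here or in the 2 comparisons that follow. KRT6A and TP63 passed it only through a single group. Of the 5 genes, only KRT15 and KRT81 can therefore be set beside the 20.5%. In the ridaforolimus line 4 of the 10 were separated below parental cells (KRT5, KRT6A, KRT17 and KRT81) and 2 above (TP63 and KRT16), beside 24.3% and 25.1% of all tested genes (49.4% in all). The threshold was passed there by 0.193% of all genes upward and 0.127% downward, from which nothing is read for the members, since that comparison chose them. Between the lines, TP63, KRT15 and KRT16 were separated upward in the ridaforolimus line and KRT5 and KRT6A downward, beside 20.9% and 20.4% of all tested genes. Of the 4 tested members other than TP63, 0 passed between the lines, where 0.744% of all tested genes did. Both lines were set against the same 2 parental libraries, so their values are not independent.

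The wider keratin family was described from 28 type I and 26 type II genes, whose products pair to build intermediate filaments. Of the 54, 22 had no count in any library and 9 had a mean of at least 1 CPM: KRT7, KRT81, KRT8, KRT80, KRT18, KRT19, KRT10, KRT86 and KRT15. None of the 54 passed edgeR's threshold between the everolimus line and parental cells or between the lines. Outside the set none passed it between the ridaforolimus line and parental cells either, where 0.32% of all tested genes did. All 6 tested type II keratins were below parental cells in both ridaforolimus libraries, beside 24.3% of all tested genes. Among them KRT6A, tested only through its parental counts, and KRT81 belong to the set that this comparison chose, so nothing is read from these members. Outside the set, KRT7, KRT8, KRT80 and KRT86 had log2 differences of -0.85, -0.43, -0.88 and -1.08, beside a median of 0.015 over all tested genes. In the everolimus line 6 of the 9 keratins at 1 CPM or more were separated below parental cells and 0 above, beside 20.5% and 20.6% of all tested genes. In the ridaforolimus line 7 were separated below, KRT81 of the set among them, and 1 above (KRT19), beside 24.3% and 25.1% of all tested genes.

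**Figure D2:**
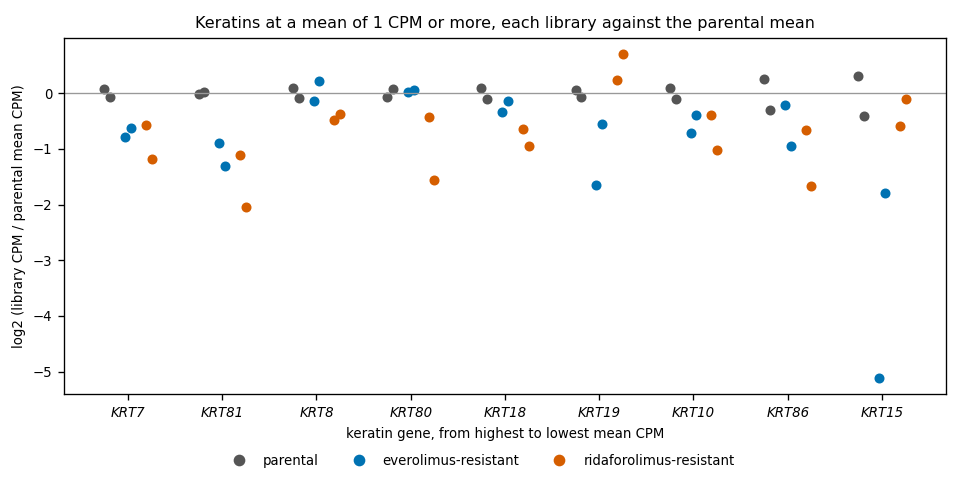
The 9 keratins with a mean of at least 1 CPM, in order of mean CPM. The vertical axis is the log2 ratio of each library's CPM to the parental mean, and each point is 1 library. KRT7 and KRT81 lay below the parental libraries in both lines, KRT19 lay below them in the everolimus line and above them in the ridaforolimus line, and KRT15 was low in the everolimus line only.

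KRT7, a keratin of simple epithelium with the highest mean CPM of the family, stood at 832 and 754 CPM in parental, 457 and 513 CPM in everolimus and 531 and 351 CPM in ridaforolimus libraries. KRT18, the partner of KRT8 in simple epithelium, stood at 219 and 192 CPM in parental, 163 and 186.5 CPM in everolimus, and 131 and 107 CPM in ridaforolimus libraries. Both lines were below parental cells for both genes, without passing the test (lowest adjusted p = 0.155, edgeR, for KRT18 in the ridaforolimus line). KRT80 was lower in the ridaforolimus libraries alone (201 and 91.8 CPM, against 256 to 283 CPM in the other 4), with an adjusted p of 0.287 against parental cells, and its log2 difference of -0.88 became -1.57 without ridaforolimus replicate 1. The summed level of all 54 keratins was 2390 and 2505 CPM in parental cells, 1649 and 1760 CPM in the everolimus line, and 1562 and 1139 CPM in the ridaforolimus line. KRT81 made up 27.7% and 30% of that sum in parental cells, 23.1% and 16.1% in the everolimus line, and 20.9% and 14.9% in the ridaforolimus line.

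Genes that p63 is known to control were then read from a list of 37, of which 28 were tested. None passed edgeR's threshold against parental cells in either line, and 1 rose in the ridaforolimus line against the everolimus line, where 0.471% of all tested genes did. The median log2 difference from parental cells was -0.18 in the everolimus line and 0.14 in the ridaforolimus line, with 9 and 16 of the 28 above 0. Over all 21223 tested genes 11110 and 10879 were above 0. Between the lines the median of the list was 0.38, with 24 of 28 above 0. Over all tested genes the median there was -0.019, with 10260 above 0. In that comparison 9 were separated upward and 1 downward, beside 20.9% and 20.4% of all tested genes. In DESeq2 1 of the 28 passed upward there and 1 downward, beside 379 and 278 of all 21223 tested genes. The downward gene was TFAP2C (log2 difference -1.36, adjusted p = 0.000527 in DESeq2 and 0.0553 in edgeR).

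The gene that passed in edgeR was LAMB3, which encodes the β chain of laminin-332, the protein that anchors basal cells to the basement membrane. It stood at 586 and 371.5 CPM in parental, 376 and 338 CPM in everolimus, and 1180 and 1462 CPM in ridaforolimus libraries, with both ridaforolimus libraries above the other 4. The log2 difference was 1.89 ± 0.27 from the everolimus line (adjusted p = 0.0286, edgeR) and 1.47 ± 0.26 from parental cells (adjusted p = 0.0706). The first call was lost with the replicate number as a block (0.0679), with only those 2 groups in the fit (0.0716), and without everolimus replicate 1 (0.0546), everolimus replicate 2 (0.0749) or ridaforolimus replicate 2 (0.114). The second passed without everolimus replicate 1 (0.0414) or 2 (0.0480). LAMA3, which encodes the α chain of laminin-332, was high in ridaforolimus replicate 2 only. It stood at 161 and 423 CPM in the ridaforolimus line against 124 to 209 CPM elsewhere. Without ridaforolimus replicate 2 its log2 difference from parental cells went from 1.00 to 0.15.

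**Figure D3:**
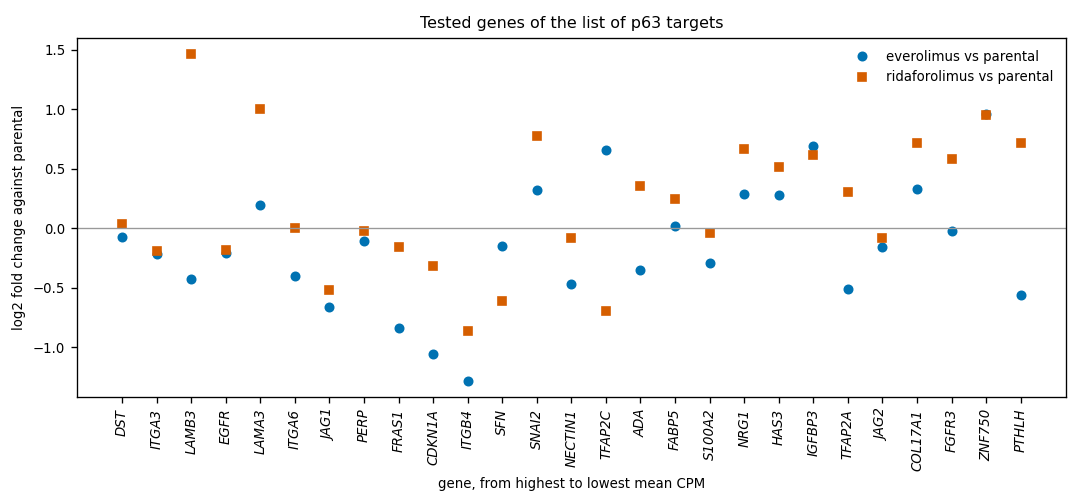
Fitted log2 fold change against parental cells of tested genes of the p63 target list (1 of the 28 is not drawn), in order of mean CPM, for the everolimus line (circles) and the ridaforolimus line (squares). LAMB3 lay highest in the ridaforolimus line at 1.47, and ITGB4 lay lowest in both lines.

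ITGB4, the integrin chain of hemidesmosomes, stood at 156 and 97.7 CPM in parental, 70.5 and 34 CPM in everolimus, and 56.6 and 83.1 CPM in ridaforolimus libraries, below parental cells in both lines (adjusted p = 0.447 and 0.346, edgeR). CDKN1A, which encodes the cell cycle inhibitor p21 and responds to p63, stood at 142 and 77.6 CPM in parental, 54.1 and 51.3 CPM in everolimus, and 102 and 73.6 CPM in ridaforolimus libraries. Its log2 difference from parental cells was -1.06 in the everolimus line and -0.32 in the ridaforolimus line (adjusted p = 0.439 and 0.662, edgeR), and the latter was 0.17 without parental replicate 1. The hemidesmosome list, which shares LAMB3 with the p63 targets, had 10 of 10 genes above 0 between the lines (median 0.41) and 1 that passed. Over all tested genes 10260 of 21223 were above 0 in that comparison, and 0.471% passed upward. The desmosome list had 8 tested genes, all below 0 in the everolimus line (median -0.39), where 11110 of 21223 tested genes were above 0. None of the 8 passed in edgeR in any comparison. In DESeq2 its member PKP3 was lower in the ridaforolimus line than in parental cells (log2 difference -1.17, adjusted p = 0.00203).

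A list of 12 genes held the p53 family and its regulators. TP63 was not counted, since its level chose the set, and none of the others passed the threshold in any comparison.

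The squamous programme that p63 governs in skin was largely undetected. Of 29 squamous differentiation genes 15 had 0 counts in all libraries, 7 were tested, and 0 passed in any comparison. Of 17 mammary basal and myoepithelial markers 9 were tested. TP63 was again not counted, and none of the others passed in any comparison. Their summed level was 818 to 882 CPM in parental, 845 to 1133 CPM in everolimus and 852 to 859 CPM in ridaforolimus libraries, and KRT14, NGFR and LGALS7 were at 0 throughout. The 18 luminal markers summed to 781 to 857, 673 to 741 and 640 to 658 CPM. Against parental cells 9 of the 12 tested luminal markers were below 0 in each line (medians -0.38 and -0.46 in the everolimus and ridaforolimus lines). In the everolimus line 6 were separated downward and 0 upward, beside 20.5% and 20.6% of all tested genes. In the ridaforolimus line 7 were separated downward and 1 upward, beside 24.3% and 25.1%. Between the lines, 6 of the 12 were above 0 and 6 below. Of these 1 passed, downward, beside 0.273% of all tested genes. GATA3, the transcription factor of luminal cells, stood at 3.90 and 4.37 CPM in parental, 3.91 and 5.88 CPM in everolimus, and 0.915 and 0.95 CPM in ridaforolimus libraries, and fell by 2.38 ± 0.38 on the log2 scale between the lines (adjusted p = 0.0403, edgeR). That call was lost with the replicate block (0.0775), with 2 groups in the fit (0.1301), with limma-voom (0.0676), and without parental replicate 1 (0.0920) or 2 (0.0964), everolimus replicate 2 (0.0979) or ridaforolimus replicate 1 (0.107) or 2 (0.190). Against parental cells its adjusted p was 0.0706, and it passed without everolimus replicate 1 (0.0373) or 2 (0.0443). Of 12 mesenchymal markers, the type the labels give for the line, 9 were tested and none passed in edgeR. Against parental cells 7 of the 9 were above 0 in the everolimus line (median 0.43) and 9 in the ridaforolimus line (median 0.43). Upward separation held for 4 and 2 of them, beside 20.6% and 25.1% of all tested genes. The 12 summed to 4311 to 4975, 6320 to 6708 and 5507 to 10150 CPM in parental, everolimus and ridaforolimus libraries. Of 6 endothelial markers 4 were tested, with 3 above 0 and 1 below in the ridaforolimus line against parental cells. The 1 that passed there was TIE1, an endothelial receptor kinase, beside 0.193% of all tested genes that passed upward. It rose from 0.764 and 0.704 CPM in parental to 9.68 and 16.7 CPM in ridaforolimus libraries (log2 difference 4.15 ± 0.46, adjusted p = 0.0145, edgeR). It did not pass without parental replicate 1 (0.178) or 2 (0.214) or ridaforolimus replicate 2 (0.0614). Between the lines none of the 4 tested endothelial markers passed in edgeR, and 3 were separated upward, beside 20.9% of all tested genes. In the everolimus line against parental cells 1 was separated upward and 1 downward, beside 20.6% and 20.5%. In DESeq2 1 passed upward there, beside 49 of all 21223 tested genes. Fibroblast markers summed to 6.67 to 16.9 CPM and leukocyte markers to 1.26 to 3.13 CPM over all libraries, and LUM and CD3E were at 0. Fewer cells with a transcript and less of it per cell cannot be told apart in bulk RNA.

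The level of TP63 was set beside those of its neighbours on chromosome 3. Of 17 tested genes within 2 Mb, none passed the threshold in any comparison, and their median log2 difference in the ridaforolimus line was 0.04. The nearest tested gene, P3H2, a collagen prolyl hydroxylase 59449 bases away, stood at 61 and 90.8 CPM in parental, 89.7 and 100.6 CPM in everolimus, and 39 and 41.9 CPM in ridaforolimus libraries. TPRG1, on the other side at 306112 bases, stood at 6.8 and 5.14 CPM in parental, 6.74 and 8.59 CPM in everolimus, and 1.68 and 2.56 CPM in ridaforolimus libraries. Both lay lower in the line with high TP63, with log2 differences from parental cells of -0.91 and -1.49 (adjusted p = 0.152 and 0.137, edgeR) and from the everolimus line of -1.23 and -1.85 (adjusted p = 0.0630 and 0.0656). CLDN1, a tight junction protein, was lower in both lines (5.42 and 3.94 CPM in parental, 1.09 and 0.529 CPM in everolimus, and 1.22 and 0.511 CPM in ridaforolimus libraries), without passing in edgeR (adjusted p = 0.270 and 0.110), while both comparisons passed in DESeq2 (adjusted p = 0.0144 and 0.00906).

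**Figure D4:**
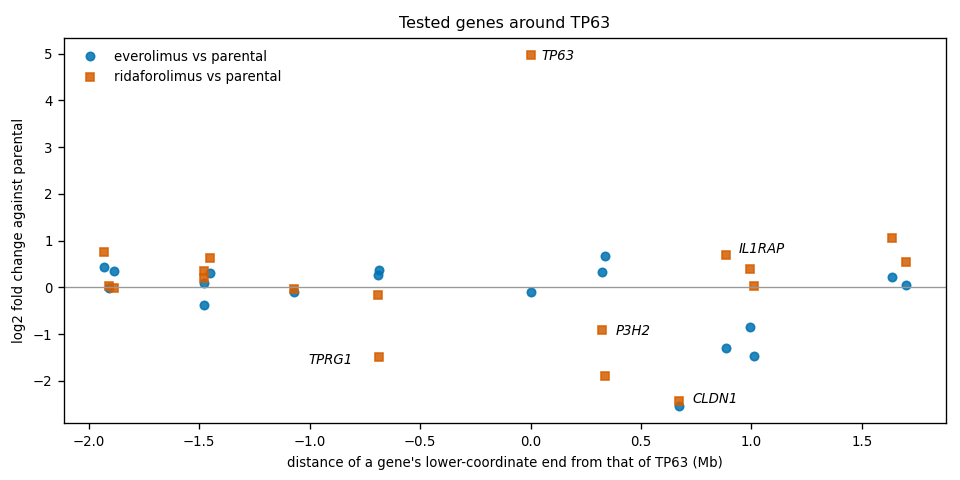
Fitted log2 fold change against parental cells of TP63 and the 17 tested genes within 2 Mb, by distance from TP63 in Mb, for the everolimus line (circles) and the ridaforolimus line (squares). TP63 stood at 4.97 in the ridaforolimus line, the nearest tested protein-coding genes on either side, P3H2 and TPRG1, lay at -0.91 and -1.49, and no neighbour passed the test.

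The genes with the pattern most like that of TP63 were ranked by Pearson correlation of log2 CPM over the 6 libraries among 18221 genes. With 3 groups of 2 this measures mainly the step to the ridaforolimus line, and it is a description with no test. LTBP2, which binds fibrillin microfibrils, came first with r = 0.9977 and stood at 68.2 and 49.9 CPM in parental, 52.3 and 58.3 CPM in everolimus, and 315 and 270.2 CPM in ridaforolimus libraries. POF1B, an actin-binding protein of epithelia, had r = 0.9922, with 89 and 131 counts in the ridaforolimus line, 1 count in parental replicate 1 and 0 in the other 3 libraries. The other 3 of the top 5 had no symbol.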

How the data were processed

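Values were whole read counts for each Ensembl gene, which the authors deposited without normalisation, in 1 column for each of the 6 libraries. Per the submitters' processing notes, HTSeq 0.13.5, STAR 2.7.9a, DESeq2 and Trim Galore 0.6.6 were used with GRCh38 (hg38). The annotation release and the strand setting of the counting were not given in the sources used here, so counts of overlapping and antisense genes are uncertain, as are those of near-identical keratins. Per the labels' protocols the kit selected mRNA and kept the strand.

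Counts were fitted in edgeR 4.0.16 (R 4.3.3) with TMM scaling and filterByExpr, using the quasi-likelihood test on all 6 libraries with a term for the 3 groups (3 residual degrees of freedom) and two-sided p-values, with Benjamini-Hochberg adjustment over all 21223 genes tested and a threshold of 0.05. The fit was tested on simulated data. DESeq2 1.42.0, limma 3.58.1 (voom), other scaling and filters, a replicate block, 2-group fits and leaving out each library were the alternatives. Log2 CPM used a prior count of 2. Groups were called separated when their libraries did not overlap. Symbols matched 62625 gene IDs and GENCODE 29 gave positions for 58279. Promoters came from RefSeq. Named genes were the 10 members, keratins at a mean of 1 CPM or more, up to 4 genes per list (those that passed first), targets shared within the family, genes within 2 Mb of TP63, and the 5 genes most like it. The members and the 14 lists were chosen with earlier results of these data known, and other genes were picked from the lists by value. Some genes of these lists are not reported here.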

Additional observations from a re-analysis of the deposited data

Results flagged for a closer look

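KRT19, a keratin of simple epithelium, was singled out because both everolimus libraries lay below both parental libraries while both ridaforolimus libraries lay above them. It stood at 75.6 and 69.2 CPM in parental, 23 and 49.2 CPM in everolimus, and 85.8 and 118 CPM in ridaforolimus libraries. Its log2 difference was -1.002 in the everolimus line and 0.49 in the ridaforolimus line against parental cells. The difference between the lines was 1.50 ± 0.34 and did not pass (adjusted p = 0.106, edgeR's quasi-likelihood test). It passed without everolimus replicate 2 (2.15, adjusted p = 0.0275), with DESeq2 (adjusted p = 0.00523) and without a filter on low counts (adjusted p = 6.9e-07). With each library left out in turn it ran from 1.04 to 2.15.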

How the results depend on the processing

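The 5 tested members gave 187 values under the alternatives: 169 kept direction and side of the threshold (or, where no test was made, moved by less than 1 SD), 4 passed only without a filter on low counts, 9 moved by more and 5 tested values changed sign. These were TP63 between everolimus and parental cells without parental replicate 1 (0.75), without everolimus replicate 1 (0.21) and with limma-voom (0.018), and TP73 without everolimus replicate 2 (-0.31 against parental cells, 0.51 between the lines). Among the differences from parental cells that were not tested in the ridaforolimus line, TP73 also changed sign without ridaforolimus replicate 1 (-0.097) and KRT15 without parental replicate 1 (0.070). Among other named genes, LAMA3 between the lines became -0.025 without ridaforolimus replicate 2, and CDKN1A in the ridaforolimus line became 0.17 without parental replicate 1. With each library left out in turn, the values ran from -0.65 to 0.75 for that TP63 difference, from -0.31 to 1.07 and from -0.88 to 0.51 for those of TP73, from -0.025 to 1.35 for LAMA3 and from -0.69 to 0.17 for CDKN1A. Without the filter KRT81 (adjusted p = 0.000564) and KRT15 (0.000623) passed in edgeR between everolimus and parental cells, and KRT15 (0.00297) between the lines. The remaining value of the 4 was that of KRT6A between everolimus and parental cells. Nothing is read from it, since that difference was given with no test above. Against parental cells DESeq2 also called CLDN1 in both lines and KRT18, LAMB3, GATA3, P3H2, PKP3 and TPRG1 in the ridaforolimus line. The luminal marker SPDEF was called lower there too (log2 difference -2.21, adjusted p = 0.00667, DESeq2). Between the lines DESeq2 also called KRT19, P3H2, TPRG1 and TFAP2C.

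The number of genes that passed moved far more. For everolimus against parental cells it was 1 in edgeR (1866 at an unadjusted p under 0.05), 493 without the filter, 0 with at least 5 CPM in 2 libraries, 0 with 2 groups, 150 with DESeq2 and 0 to 3 with a library left out. For ridaforolimus against parental cells it was 68, then 1195 without the filter, 127 with 2 groups, 574 with DESeq2 and 1 to 276 with a library left out. Between the lines it was 158, then 1362 without the filter, 81 with at least 5 CPM, 0 with 2 groups (2151 at an unadjusted p under 0.05), 657 with DESeq2 and 19 to 123 with a library left out. The cause was not tested.

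With the replicate number as a block the counts were 0, 28 and 49. Same-numbered libraries did not deviate together in all pairs of groups (correlations of 0.33, -0.17 and -0.19). With 2 libraries per group this does not settle whether the numbers pair them. Counts of at most 5 per library limit what can be said of KRT16, KRT17 and KRT6B.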
